A study of Homo sapiens with 2 samples.

Results

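Matricellular genes encode secreted proteins that sit in the extracellular matrix and signal to cells. The 10 examined here are POSTN, TGFBI, THBS1, THBS2, THBS3, TNC, SPARC, SPOCK1, SPP1 and FBLN1, taken from 14232 genes that the array measured with a probe set assigned to 1 gene symbol. Their expression was compared in J82, an established human bladder cancer cell line grown in serum-containing medium. Cells were stained with the DNA dye Hoechst and sorted by flow cytometry into a side population (SP), which holds little dye because it is pumped out, and the remaining non-side population (NSP). Both populations came from the untreated line and differ, as far as the labels say, only in the sort. RNA from each was hybridised to 1 whole-transcript exon array, so 2 arrays in all carry every value below. The cells are a culture of a single tumour line, without the stroma that makes much of the matrix in a tissue.

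The genes were picked by family with the SP minus NSP differences of these same arrays already known, and POSTN and THBS1 are among the largest of those. Their differences are therefore a description of what chose them and carry no test. With 1 array a population there is no replicate, no error between samples and no p-value for any gene, and the number of arrays limits the precision. All values are log2 signals, a difference is the SP value minus the NSP value, and a fold is 2 to the power of its size. A gene was counted as different at 1.5-fold or more, provided that 1 of its values was at least the median over both arrays (7.44), called the floor. Levels of different genes are not ranked, because each gene is read by other probes. Where genes are set beside each other by signal, or signals summed over a marker list, that describes the arrays and not the amounts of RNA.

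Matricellular proteins have little part in the mechanical strength of a tissue. They bind collagens, growth factors, proteases and cell surface receptors, chiefly integrins, and tune how firmly a cell attaches, moves and reads its surroundings. In bladder and other carcinomas they are best known from tumour stroma and wound-like matrix, and several are made by the tumour cells too. Some thrombospondins also restrain vessel growth, and thrombospondin 1 can release TGF-beta from its latent form.

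Among the 10 genes, THBS1 was the higher in SP and POSTN the higher in NSP, each past 2-fold, and the other 8 differed by 1.19-fold or less. THBS1 had a difference of 1.03 and POSTN one of -1.59. Of the others, the lowest was -0.25 (TGFBI) and the highest 0.19 (THBS2). In RNA pooled from many cells, fewer cells that express a gene and less RNA per cell cannot be told apart. Each of the 10 genes was read by 1 probe set. In all, 4 genes had the higher value in SP and 6 in NSP, and the median difference was -0.08, against 0.00 over all 14232 genes. The floor was reached by 5 of them (THBS1, THBS3, POSTN, SPARC and FBLN1), and POSTN reached it in NSP only. The other 5 (THBS2, TGFBI, TNC, SPOCK1 and SPP1) were under the floor on both arrays, where RMA, the method behind these values, compresses differences. At 1.5-fold, 1 gene was higher, where 3.10% of the 7549 genes at or above the floor were higher, and 1 was lower, where 1.43% were. At 2-fold the same genes were counted, against 0.609% of genes higher and 0.119% lower. These shares are printed as background only, since the differences took part in the choice of the genes.

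**Figure D1:**
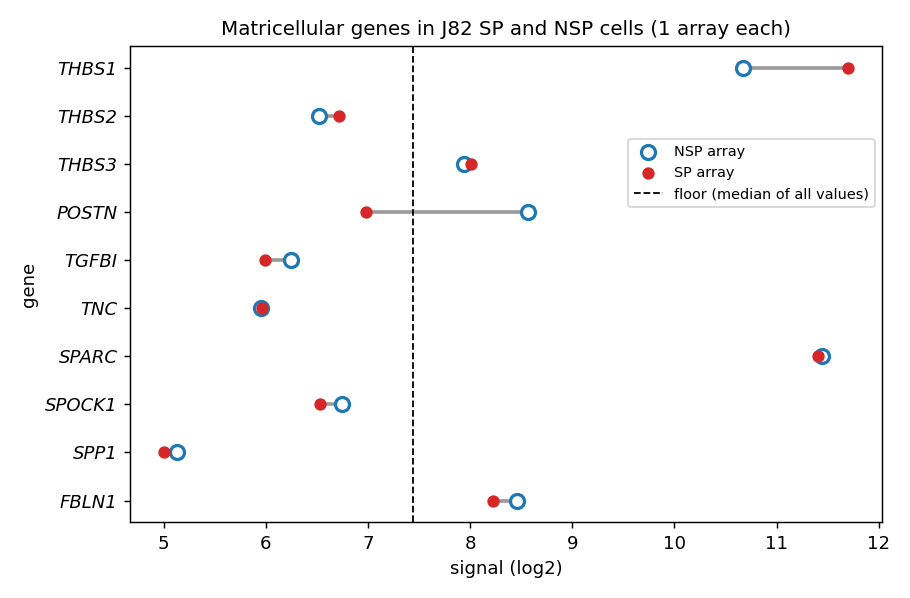
Log2 signal of each of the 10 genes (rows) on the SP array (filled red points) and the NSP array (open blue points), 1 array each with no error bars; the dashed line is the floor of 7.44. THBS1 lies to the right in SP (11.70 against 10.67) and POSTN to the left (6.98 against 8.57), and for the other 8 genes the points lie close together; levels of different rows are not comparable.

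The 2 genes counted have unlike start regions, which are printed here to describe these genes. A link between the regions and the differences was not tested. Promoter sequences were matched by symbol in the RefSeq table of GRCh38.p14 for 9 of the 10 genes. The 250 bases before the transcription start were searched on both strands for 5 motifs. The TATA box was searched as TATAAA. The GC box, to which Sp1 binds, was searched as GGGCGG. The AP-1 type site was searched as TGANTCA. The TEAD type site was searched as GGAATG. The CArG box, bound by SRF, was searched in its usual form. Capitals mark every match in the sequences, which run 5′ to 3′ on the strand of the gene. No match overlapped another motif. The POSTN window is chr13:37598769-37599018 on the minus strand, and the THBS1 window is chr15:39580829-39581078 on the plus strand.
POSTN: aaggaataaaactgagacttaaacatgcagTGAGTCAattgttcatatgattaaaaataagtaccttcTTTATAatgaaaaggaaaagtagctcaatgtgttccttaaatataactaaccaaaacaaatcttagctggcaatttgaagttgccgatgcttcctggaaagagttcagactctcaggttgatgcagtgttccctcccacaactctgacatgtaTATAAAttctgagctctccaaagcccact
THBS1: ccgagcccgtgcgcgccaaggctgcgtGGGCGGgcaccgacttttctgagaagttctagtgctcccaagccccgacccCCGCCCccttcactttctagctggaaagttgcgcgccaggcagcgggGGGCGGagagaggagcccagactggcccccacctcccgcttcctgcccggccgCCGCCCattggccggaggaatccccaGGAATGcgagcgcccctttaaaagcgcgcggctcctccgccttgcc

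The POSTN window held TATAAA at 29 to 24 bases before the start, a second copy on the other strand at 182 to 177 bases, and 1 TGANTCA match at 220 to 214 bases. The THBS1 window held 4 GGGCGG matches, the nearest at 72 to 67 bases before the start, and 1 GGAATG match at 46 to 41 bases. Its GC content was 69.6%, that of the POSTN window was 36.4%, and the median of all 35116 promoters in the table was 58%. In windows of the same length, the TATA box letters occurred in 10.7% of all promoters, the AP-1 type site in 6.57%, the TEAD type site in 11.9%, the GC box in 42.6% and the CArG box in 1.16%. Neither window held a CArG box. Among the windows of the other genes, THBS2 also had TATAAA at 29 to 24 bases, and GGAATG occurred in THBS2 and SPARC. GGGCGG occurred in TGFBI, THBS3, TNC and FBLN1, none of them counted at 1.5-fold. The GC content of the TGFBI (72.8%) and FBLN1 (77.6%) windows was above that of THBS1. A match describes the letters of a window and not a site in use.

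Of the 3 thrombospondins among the genes examined here, 1 differed by 2-fold and the others little. THBS1, a trimeric glycoprotein that binds the receptors CD36 and CD47, had a value of 11.70 in SP and 10.67 in NSP. Its SP value was the higher by 2.04-fold, and both values were far above the floor. Of the 7549 genes at or above the floor, 41 had a difference at least as high, THBS1 included (0.543%). THBS2, a close relative of thrombospondin 1 that is likewise anti-angiogenic, had 6.71 in SP and 6.52 in NSP, a difference of 0.19 between values under the floor. THBS3, a pentameric thrombospondin without the domain that restrains vessels in the first 2, had 8.0 in SP and 7.94 in NSP. That is 1.05-fold on values above the floor. THBS1 alone of these 3 was counted at 1.5-fold. THBS4 and COMP, thrombospondins of the list of other matricellular genes, had differences of 0.10 and 0.07, under the floor on both arrays.

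Periostin and its paralog TGFBI are secreted proteins built from fasciclin domains that bind integrins and collagen. POSTN had a value of 6.98 in SP and 8.57 in NSP. It was 3.0-fold lower in SP, where its value was under the floor, so the size of the difference rests on a dim SP signal. Of the genes at or above the floor, 2 had a difference at least as low, POSTN included. TGFBI, named for its induction by TGF-beta, had 5.99 in SP and 6.24 in NSP. It was also lower in SP, by 1.19-fold, with both values under the floor. The 2 paralogs thus had the same sign and differed in size (-1.59 and -0.25).

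TNC, SPARC, SPOCK1, SPP1 and FBLN1 differed little. TNC, a large glycoprotein that loosens attachment to fibronectin, had 5.96 in SP and 5.95 in NSP, under the floor. Its difference of 0.01 turned to -0.05 after removal of the trend on signal level and to -0.01 after quantile normalisation, so it has no direction. SPARC, a collagen-binding protein, had 11.41 in SP and 11.44 in NSP, and its difference of -0.04 turned to 0.04 after removal of the trend. SPOCK1, a proteoglycan that shares domains with SPARC, had 6.53 in SP and 6.74 in NSP, a difference of -0.21 under the floor. SPP1 encodes osteopontin, a phosphoprotein that binds integrins and CD44. It had 5.01 in SP and 5.13 in NSP, under the floor. FBLN1, which encodes fibulin 1 of basement membranes and elastic fibres, had 8.22 in SP and 8.45 in NSP. Its values were above the floor and 1.17-fold lower in SP. Of the genes at or above the floor, 20.8% had a difference at least as low as that of FBLN1.

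**Figure D2:**
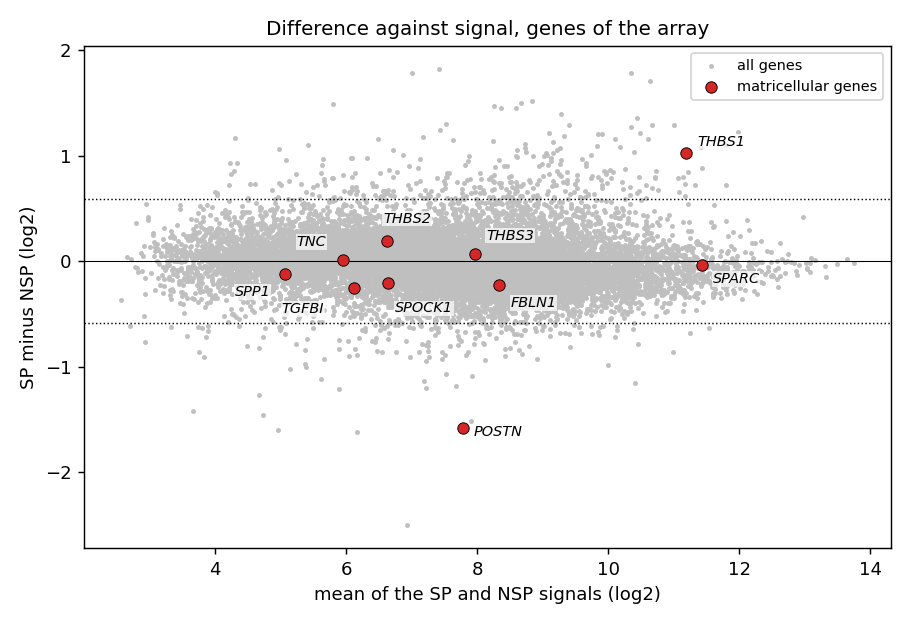
SP minus NSP difference (log2) against the mean of both signals (log2) for all 14232 genes (grey) and the 10 matricellular genes (red, labelled), 1 point a gene; dotted lines mark 1.5-fold either way. THBS1 (1.03) lies above the upper line and POSTN (-1.59) below the lower one, while the other 8 genes lie inside the main cloud.

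The nearest genes to THBS1 in the plane of the SP and NSP values were IER3 (11.63 in SP, 10.79 in NSP), an early response gene, SLC38A2 (11.54 and 10.74), an amino acid transporter gene, and TRIB1 (11.53 and 10.80), a pseudokinase gene. Their distances were 0.14, 0.17 and 0.21 on the log2 scale. The nearest to POSTN were GABBR2 (7.15 and 8.66), a GABA-B receptor subunit gene, MRPS17 (7.09 and 8.27), a mitochondrial ribosomal protein gene, and ZNF701 (7.38 and 8.47), a zinc finger gene. Their distances were 0.19, 0.32 and 0.41. Likeness here rests on 2 arrays, and closeness of signal between different probes says nothing of shared function or control.

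Other matricellular genes, 30 listed and 26 measured, held 1 gene at least 1.5-fold higher in SP and none lower. Only 7 of the 26 reached the floor, and over all genes at or above it 3.10% were higher and 1.43% lower at 1.5-fold. The median difference of the 26 was 0.08, against 0.00 for all genes. Over the 7 it was 0.05, against -0.05 for all genes at or above the floor. CCN1, an integrin-binding growth regulator, had 11.31 in SP and 10.02 in NSP and was 2.44-fold higher. Its relative CCN2, also called connective tissue growth factor, had 10.60 and 10.06 (1.45-fold higher), which passed 1.5-fold once the trend on signal was removed (1.54-fold). CCN3 had a difference of 0.23, and the elastic fibre gene FBLN5 one of -0.41. EFEMP1, a fibulin, had 12.11 in SP and 12.19 in NSP. CCN1 and CCN2 are also known YAP/TAZ-TEAD targets.

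Cell surface receptors for these proteins showed no difference of 1.5-fold. Of 25 listed, 24 were measured and 17 reached the floor, and 8 of the 24 had the higher value in SP and 16 in NSP. None at 1.5-fold is near the background, where 3.10% of genes at or above the floor were higher and 1.43% lower. The median difference over the 24 was -0.09, against 0.00 over all genes. Over the 17 that reached the floor it was -0.11, against -0.05 over all genes at or above it. Of all genes 49.5% were lower in SP, and of those at or above the floor 59.6%. CACNA2D1, a calcium channel subunit gene and thrombospondin receptor, had 7.28 in SP and 7.72 in NSP (-0.44), with the SP value under the floor. The scavenger receptor gene LRP1 had -0.36, the integrin gene ITGA3 -0.35 and the thrombospondin receptor gene CD47 -0.28. CD36, the other main thrombospondin 1 receptor, was under the floor at 3.51 in SP and 3.65 in NSP. ITGAV, whose integrins bind periostin and osteopontin, had 9.86 in SP and 9.88 in NSP.

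Partners of these proteins in the matrix and the enzymes that assemble it had no member at 1.5-fold either. Of 28 listed, 27 were measured and 19 reached the floor, with a median difference of 0.03 over the 27. Over the 19 it was -0.05, against -0.05 for all genes at or above the floor. The value was higher in SP for 16 of the 27 and in NSP for 11. None at 1.5-fold is again near the background of 3.10% higher and 1.43% lower. The 4 largest differences above the floor were all lower in SP. LOX, the collagen cross-linking enzyme that periostin helps to activate, had 7.78 in SP and 8.32 in NSP, 1.46-fold lower. The cross-linking enzyme gene TGM2 was 1.39-fold lower, the proteoglycan gene LUM 1.32-fold lower and the collagen gene COL3A1 1.27-fold lower. BMP1, the protease that periostin brings to LOX, had 8.75 in SP and 8.71 in NSP. FN1, the fibronectin gene, had 10.19 and 10.04.

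The TGF-beta pathway, which thrombospondin 1 can activate and which induces several of these genes, held 4 genes at least 1.5-fold higher in SP and none lower. Of 22 listed, 20 were measured and 16 reached the floor, and over all genes at or above it 3.10% were higher and 1.43% lower at 1.5-fold. The median difference was 0.14 over the 20, and 0.30 over the 16, against -0.05 for all genes at or above the floor. SMAD3, which carries the signal to the nucleus, had 9.80 in SP and 8.73 in NSP and was 2.10-fold higher. The ligand gene TGFB2 had 9.87 and 9.26, a 1.53-fold difference. ID1 and ID3, transcriptional inhibitors best known as BMP targets, were 1.55-fold higher each. The receptor gene TGFBR1 went the other way, at 8.46 in SP and 8.90 in NSP (-0.44), and TGFB1 differed by -0.04. At 2-fold, SMAD3 alone of this list was counted.

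Proteases and inhibitors that act on matricellular proteins held 2 genes at least 1.5-fold higher in SP and none lower, among 18 measured of 19 listed. Only 8 of the 18 reached the floor, where 3.10% of all genes were higher and 1.43% lower at 1.5-fold. The median difference of the 18 was 0.04. Over the 8 it was -0.08, against -0.05 for all genes at or above the floor. Both counted genes encode plasminogen activators. PLAT had 8.96 in SP and 8.21 in NSP (1.68-fold), and PLAU had 8.28 and 7.69 (1.51-fold, just past the threshold). ADAMTS1, a protease that cuts thrombospondins, was 1.45-fold higher and passed 1.5-fold once the trend on signal was removed (1.52-fold). The inhibitor gene TIMP3 was 1.28-fold lower. Membership counts of the 5 lists describe these arrays and mark nothing as particular to any list.

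**Figure D3:**
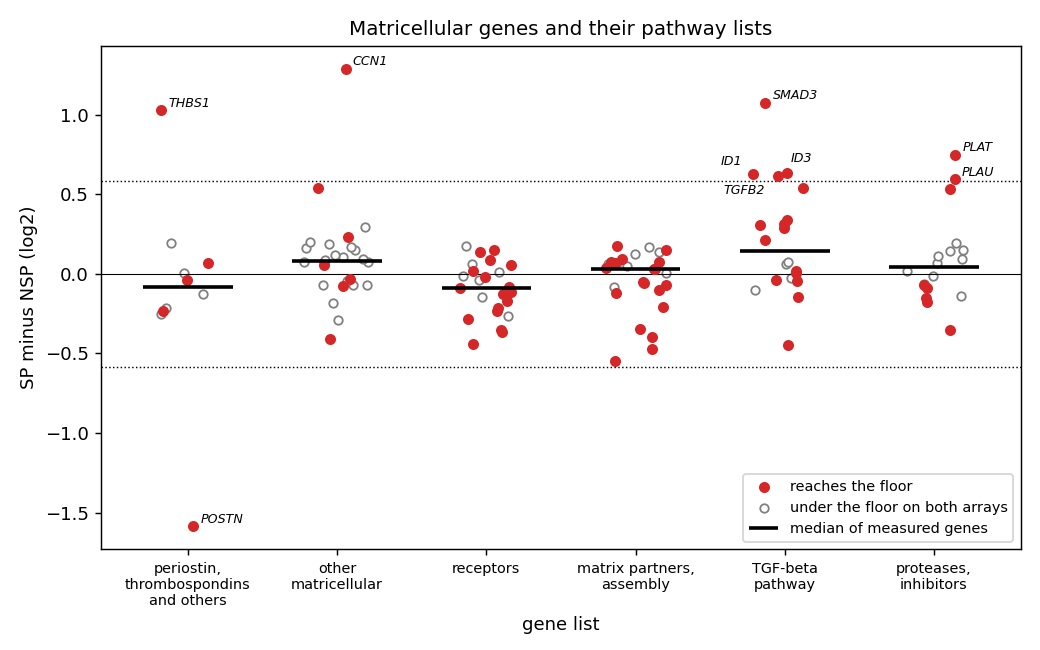
SP minus NSP difference (log2) of each measured gene in the 10 matricellular genes (leftmost) and the 5 lists around them, with filled points for genes that reach the floor, open points for genes under it on both arrays, bars for the median of measured genes and dotted lines at 1.5-fold. Labelled genes are those counted at 1.5-fold: 7 genes of the 5 lists lie above the upper line and none below the lower one.

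Markers of the line and of other cell types were read beside these values. KRT8 (13.18 in SP, 12.77 in NSP), KRT18 (10.57 and 10.32), VIM (10.12 and 10.16), CDH2 (9.86 and 9.88), KRT7 and KRT19 reached the floor, and EPCAM and CDH1 did not. Of 8 measured fibroblast markers, 4 reached the floor: LUM (10.74 and 11.13), COL3A1 (10.13 and 10.48), COL1A1 (7.70 and 7.53) and PDGFRB (8.53 and 7.99). FAP, DCN, THY1 and COL1A2 lay under it. The summed linear signal of the 8 was 0.841 times as high in SP as in NSP, a sum in which LUM and COL3A1 weigh most. By count, 5 of the 8 had the higher value in SP and 3 in NSP, with a median difference of 0.07. The part of these markers in the POSTN difference was not tested. Of 7 endothelial markers only CLDN5 reached the floor, of 7 leukocyte markers CD68, CD14 and NKG7, and of 3 platelet markers GP9. PTPRC, which defines leukocytes, had 3.74 in SP and 3.80 in NSP, and the endothelial marker PECAM1 had 5.36 and 5.20. The summed signals in SP of the J82 identity, endothelial, leukocyte and platelet markers were 1.23, 1.01, 0.939 and 1.14 times those in NSP. KRT8 weighs most in the J82 sum. By count, 4 of the 8 J82 markers had the higher value in SP and 3 in NSP, with EPCAM equal. Their median difference was 0.01. No value in this file is 0, so a low signal is not a measure of absence.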

How the data were processed

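One human exon array was measured for each of 2 J82 populations, SP and NSP. The authors deposited log2 values, made with RMA and Partek per the submitters' processing notes; their range (2.11 to 13.99) and RMA's usual output gave the scale. Software versions, the definition of probe sets and any filtering are not stated in the sources used here. Probe intensities were not used, so detection above background was not computed. Of 22011 probe sets, 14432 had 1 gene symbol in the platform annotation, 2408 several and 5171 none. Symbols were updated by Entrez identifier (14404 matched RefSeq, GRCh38.p14), and a gene's value was the mean of its probe sets (14232 genes). SP minus NSP was taken per gene. No test was possible with 1 array a group. The code that counts genes past a fold was tested on simulated data, which says nothing of whether a counted difference would recur. The genes and lists were chosen with earlier results of these data known. Named genes are the 10 and the 4 largest differences of each list above the floor. The 3 genes nearest to THBS1 and to POSTN, and markers at or above the floor, are named too. Other list genes and markers were named after their values were seen. They are EFEMP1, THBS4, COMP, CD36, ITGAV, BMP1, FN1, TGFBR1, TGFB1, and markers under the floor. Alternatives were other floors, 2-fold, centring, removal of a lowess trend (span 0.3), quantile normalisation and the brightest probe set. Python 3.11.15, numpy 2.4.6, pandas 2.3.3, statsmodels 0.14.6 and matplotlib 3.10.9 were used.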

Additional observations from a re-analysis of the deposited data

How the results depend on the processing

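THBS1 was counted as higher under all 7 alternatives and POSTN as lower under 6. Some of these could not change either call. The median difference of all genes was 0.00, so centring left every difference as it was. Each of the 10 genes had 1 probe set, so the choice of the brightest changed none of their values. Leaving out the floor cannot undo a call. With the floor required on both arrays, the count of the 10 genes lower in SP went from 1 to 0, since the POSTN value in SP is under it. Across the other scalings and the choice of probe set, THBS1 ran from 1.03 to 1.11 and POSTN from -1.59 to -1.56, and SPARC and TNC, both near 0, changed sign. In the 5 lists the count higher in SP was 7, against 2 at 2-fold (CCN1 and SMAD3) and 9 after removal of the trend on signal. Over all genes at or above the floor the split of 234 higher and 108 lower became 292 and 80 after that removal. No paired analysis was possible because each population has 1 array. The number of arrays, and dim signal for the 5 genes under the floor, limit what can be read.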

Other observations

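The genes beside the 10 on the chromosomes are listed as a description. The nearest measured protein-coding gene on each side was taken from the RefSeq order, 20 in all. Of these, 0 reached 1.5-fold. Most of them, TRPC4 included, lay under the floor on both arrays and could not be counted. The background shares at this threshold are small too (3.10% higher, 1.43% lower), so a count of 0 does not set the neighbours apart. Their differences ran from -0.19 (LECT2, beside TGFBI) to 0.45 (ABCG2, the dye efflux transporter gene beside SPP1, under the floor on both arrays). SUPT20H and TRPC4, on either side of POSTN, had differences of -0.11 and 0.06. RASGRP1 and GPR176, on either side of THBS1, had 0.10 and -0.10. FSIP1 overlaps THBS1 in the annotation and had 4.55 in SP and 4.66 in NSP. MTX1 overlaps THBS3 and had 9.33 in SP and 9.29 in NSP.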
